A study of Homo sapiens with 2 samples.

Results

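The collagen genes were described here in 2 lists of NRF-1 binding peaks from glioblastoma cells. The members were the protein_coding genes of GENCODE whose symbol is COL, a number, A and a number, which gave 44 genes of 19794 coding gene symbols. This rule used no binding value, but the members were chosen with earlier results of these data known. NRF-1 was immunoprecipitated from U251 cells, an established human glioblastoma line, after transfection with either a control siRNA (siControl) or an siRNA directed at AATF (siAATF), and the libraries were made by ChIPmentation, in which Tn5 transposase adds the sequencing adapters to the precipitated chromatin. The comparison asks whether NRF-1 peaks are kept after AATF depletion. Each condition had 1 peak list, so there were no replicates and no test between the conditions was made. Both groups shared the cell line and the antibody and differed in the siRNA alone, as far as the labels say. Neither AATF depletion nor collagen expression can be read from peak lists, and only binding is described.

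Collagens are secreted matrix proteins in which chains built of glycine-rich repeats wind around each other into a stiff helix. The family includes fibril-forming chains of skin, bone and cartilage, network-forming chains of basement membranes, chains that decorate fibrils (FACIT collagens) and chains that cross the plasma membrane. NRF-1 is a transcription factor best known for promoters of nuclear genes for mitochondrial proteins. It binds as a dimer to a GC-rich palindrome, here searched as the word GCGCA followed at once by its reverse complement, the word TGCGC, a core of 10 bases. AATF is a transcriptional cofactor, and collagens are not among the genes for which either protein is best known.

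The sequences below show where the core was found in collagen genes and where it was not. Each was read from the plus strand of hg19, in lower case with the best match to the core in capitals. The peak in intron 27 of COL20A1, a FACIT collagen gene, held the only exact core among all collagen peaks (chr20:61953881-61953940). The next 4 are the best matches in the collagen peaks with the highest fold enrichment ranks in siAATF, at COL9A2 with 3 mismatches (chr1:40782241-40782300), at COL19A1 with 2 (chr6:70577133-70577162), at COL2A1 with 2 (chr12:48395383-48395442) and at the start shared by COL4A3 and COL4A4 with 3 (chr2:228028685-228028714).
COL20A1: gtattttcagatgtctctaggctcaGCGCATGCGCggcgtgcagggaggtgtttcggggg
COL9A2: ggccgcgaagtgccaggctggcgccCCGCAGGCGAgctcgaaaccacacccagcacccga
COL19A1: ctggggggcgGCGCGGGCGCgggcggggat
COL2A1: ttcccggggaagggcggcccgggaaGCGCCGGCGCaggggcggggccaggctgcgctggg
COL4A3: ccccgggacaGCGGTTGCCCcacctatggg

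The type IV collagen genes COL4A1 and COL4A2 are transcribed away from each other, and the whole stretch between their canonical starts is 126 bases long (chr13:110959505-110959630). It is shown on the plus strand with a CCAAT word and a GC box, the word GGGCGG, in capitals. Its GC content was 80.2%, and 26 of its bases are annotated as untranslated exon of other transcripts. It lay inside a peak of both lists, yet the best match to the core within this stretch had 3 mismatches. Outside the stretch, the peak of each list held a match with 2 mismatches.
COL4A1/COL4A2: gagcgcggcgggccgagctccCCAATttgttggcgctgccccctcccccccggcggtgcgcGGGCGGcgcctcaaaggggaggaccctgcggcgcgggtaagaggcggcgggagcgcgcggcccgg

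The number of peaks was 18014 for siControl and 18454 for siAATF. Of these, 11695 and 11648 lay at a promoter, defined as the 1 kb before and after each protein_coding transcript start. A peak in a gene but outside that gene's own promoters was counted as a gene body peak, and the exon or intron given for a peak is that of its midpoint in the canonical transcript. Each peak has a fold enrichment over the background of its own library and a −log10 q, the significance given by the peak caller. Because depth was unknown and fold enrichment is relative to each library, strength was compared between the lists by percentile rank, from 0 for the weakest peak of a list to 100 for the strongest. Peaks of the 2 lists were called shared when they had at least 1 base in common. The intervals given are exact Clopper-Pearson 95% intervals of the share, and they cover counting error only, since neighbouring genes can share a peak and genes are not replicates of a condition.

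NRF-1 promoter peaks were less frequent at collagen genes than at coding genes as a whole. In siControl, 19 of the 44 collagen genes had a promoter peak (43.2%, interval 28.3 to 59.0), against 61.1% of all coding genes. In siAATF the count was also 19 of 44, against 60.7% of all coding genes. A promoter peak was present in both lists at 18 collagen genes (40.9%, interval 26.3 to 56.75), against 59.5% of all coding genes. The upper bound of each interval lay below the share of all coding genes. COL27A1 was the only collagen gene with a promoter peak in siControl alone, a class that held 1.62% of all coding genes. COL7A1 was the only one with a promoter peak in siAATF alone, against 1.17% of all coding genes. In all, 20 collagen genes had a promoter peak in at least 1 list, 6 had a gene body peak and no promoter peak (COL2A1, COL6A1, COL8A2, COL16A1, COL18A1 and COL20A1), and 18 had no peak in either list.

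The content of CpG dinucleotides around the start moved with these counts. CpG observed/expected, the number of CpG steps relative to that given by the C and G content, was taken over 500 bp on either side of the canonical transcript start. Its median was 0.619 over the 44 collagen genes and 0.725 over all coding genes. The 20 collagen genes with a promoter peak lay between 0.487 and 0.890 with a median of 0.697, while the 24 without lay between 0.0793 and 0.891 with a median of 0.470, so the ranges overlapped. Below 0.4, 0 of 7 collagen genes had a promoter peak in either list, where 10.2% of all coding genes had one in siControl. Between 0.4 and 0.6 the siControl count was 5 of 15, beside 38.3% of all coding genes. Between 0.6 and 0.8 it was 9 of 14, beside 77.5%, and at 0.8 or above it was 5 of 8, beside 88.8%. In siAATF the counts were 0, 6, 8 and 5 in the same classes, beside 9.79%, 37.1%, 77.3% and 88.2%. With 7 to 15 collagen genes in a class, none of these classes fixes a difference on its own, and whether CpG content accounts for the lower count was not tested. Among collagen genes with a CpG-rich start and no promoter peak were COL23A1 (0.891), a transmembrane collagen, and COL15A1 (0.867) and COL18A1 (0.830), both multiplexins.

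**Figure D1:**
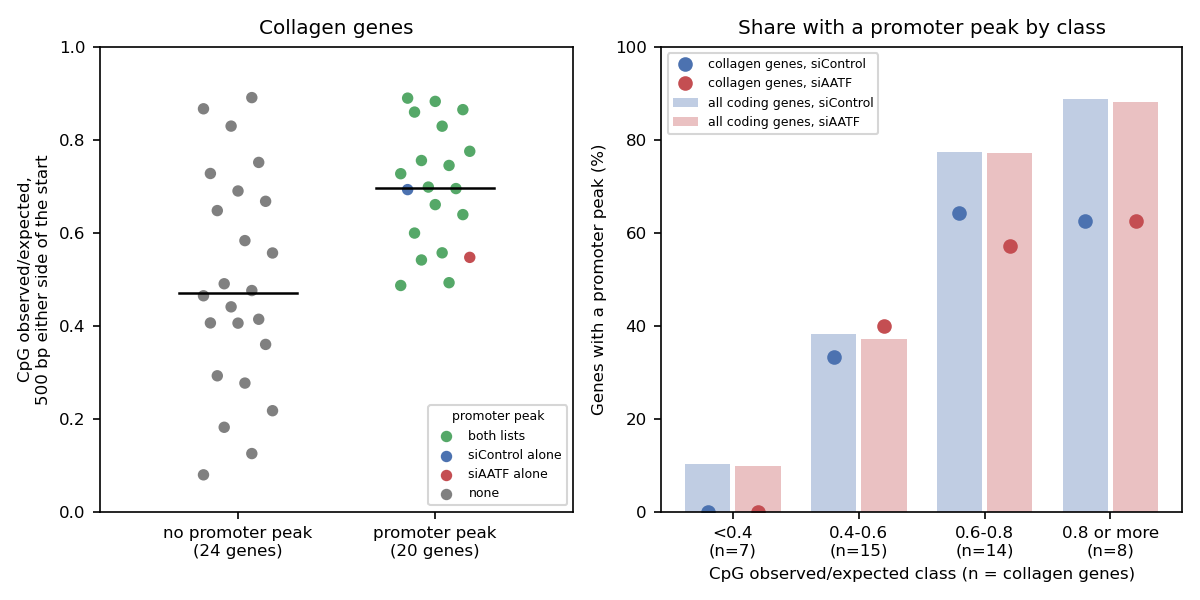
Left, CpG observed/expected around the canonical start of each collagen gene, by whether the gene had a promoter peak, with a point per gene, colours for the list and black lines at the medians of 0.470 and 0.697. Right, percent of genes with a promoter peak by class of CpG observed/expected, with bars for all coding genes and points for collagen genes; the points are at 0 in the lowest class and below the bars in the 2 highest classes.

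The promoter peaks that collagen genes did have were often displaced from the canonical start. In both lists, those of COL9A2, COL19A1, COL1A1 and COL13A1 missed the canonical start but covered another coding start of the gene. The peak covered the canonical start at 12 of the 19 collagen genes in siControl (63.2%, interval 38.4 to 83.7), against 86.9% of all coding genes with a promoter peak. In siAATF it did so at 9 of 19 (47.4%, interval 24.4 to 71.1), against 88.2%. The midpoint of the strongest promoter peak lay over 500 bp downstream of the canonical start at 6 of 19 collagen genes in siControl (31.6%, interval 12.6 to 56.6), against 6.51% of all coding genes with a promoter peak, and at 7 of 19 in siAATF (36.8%, interval 16.3 to 61.6), against 6.17%. Both of these measures were chosen after the data had been seen. In siControl the 6 genes were COL13A1 (714 bp downstream), COL19A1 (889 bp), COL1A1 (1125 bp), COL26A1 (1131 bp), COL27A1 (1296 bp) and COL9A3 (2073 bp). COL9A2 and COL12A1 passed the limit in siAATF alone, and COL27A1 had no siAATF promoter peak. The strongest peak of COL9A2 had its midpoint 508 bp downstream in siAATF against 489 bp in siControl, a small shift. That of COL12A1 lay 3975 bp downstream in siAATF, in a peak without a siControl counterpart.

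**Figure D2:**
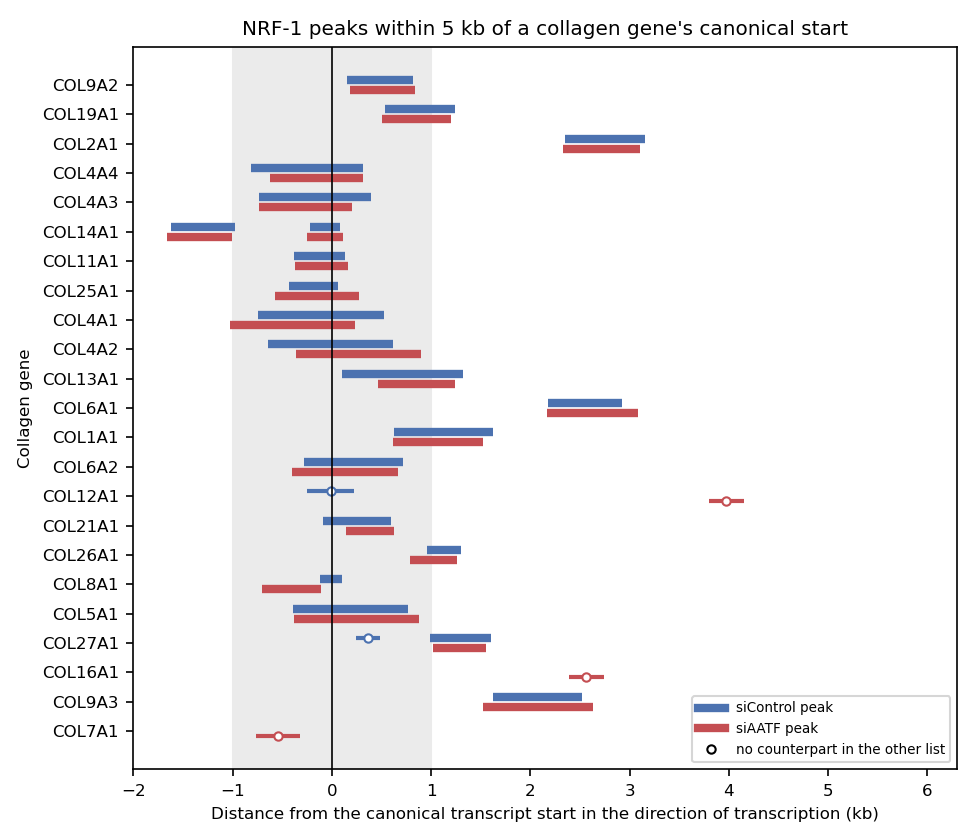
Peaks whose midpoint lay within 5 kb of the canonical start of a collagen gene, in kb along the direction of transcription, with a bar for the full width of each peak and open circles on peaks without a counterpart in the other list; the grey band is 1 kb on either side of the canonical start. The bars of COL9A2, COL19A1, COL1A1, COL13A1 and COL26A1 lie to the right of the canonical start. All of these but COL26A1 cover another coding start, which is not drawn. The bars of COL2A1 and COL6A1 lie over 2 kb inside the gene.

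By strength, the collagen promoter peaks were spread over each list, with a lower median rank than promoter peaks overall. The 19 distinct collagen promoter peaks of siControl had a median percentile rank of 33.9 (interval of the median 14.6 to 69.3), against 59.8 for all promoter peaks. The 17 of siAATF had a median of 30.5 (8.38 to 60.2), against 60.8. When each gene was represented by its strongest promoter peak, the medians were 60.0 (28.4 to 69.3) and 45.9 (8.38 to 66.7), against 63.4 and 64.4 for all coding genes with a promoter peak. The value for all promoters lay inside the collagen interval in 3 of these 4 comparisons and just above it for the distinct siAATF peaks. The median width of collagen promoter peaks was 668 bp (467 to 995) in siControl and 699 bp (480 to 934) in siAATF, and both intervals held the medians of all promoter peaks, 832 bp and 844 bp.

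**Figure D3:**
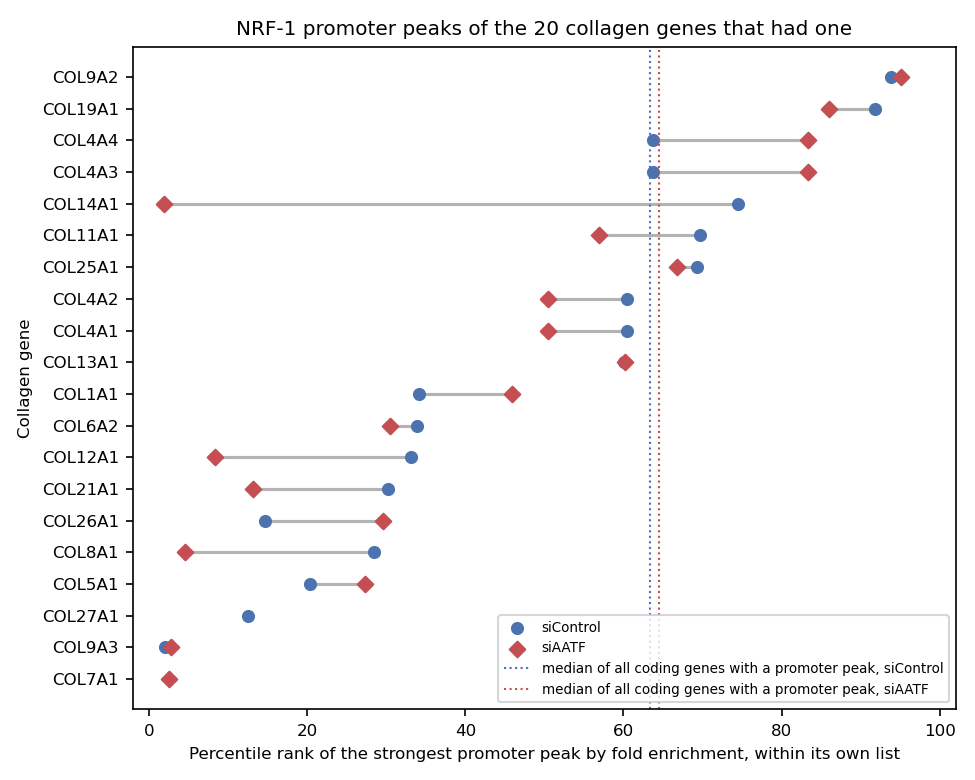
Percentile rank by fold enrichment of the strongest promoter peak of each collagen gene that had a promoter peak, with circles for siControl, diamonds for siAATF and dotted lines at the medians of all coding genes with a promoter peak (63.4 and 64.4). COL9A2 and COL19A1 stand highest, COL4A3 and COL4A4 move up to 83.3 in siAATF, and the long line of COL14A1 joins different peaks, because its stronger peak lay 980 bp from the nearest coding start in siControl and 1008 bp in siAATF.

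Among the fibril-forming chains, promoter peaks were found at 4 of 11 genes in siControl and at 3 in siAATF. COL1A1 encodes the major chain of type I collagen, the main collagen of bone, skin and tendon. Its peak (chr17:48277373-48278361) had its midpoint in intron 1, with a fold enrichment of 4.83 and a −log10 q of 6.85 in siControl and of 5.34 and 10.6 in siAATF. Its percentile rank was 34.1 in siControl and 45.9 in siAATF, the third largest gain at a collagen promoter. COL5A1, a chain of type V collagen, which helps to set fibril width, had a peak of 1162 bp over its start (chr9:137533256-137534417). Its fold enrichment was 4.12 in siControl and 4.37 in siAATF, and its rank was 20.3 and 27.3. COL11A1, a cartilage fibril chain, had a peak over its start (chr1:103573946-103574454) with a fold enrichment of 7.23 and a −log10 q of 10.2 in siControl, and of 6.002 and 7.24 in siAATF. Its rank was 69.7 in siControl and 56.9 in siAATF, the third largest loss among collagen promoter pairs.

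COL27A1, another fibril-forming chain, had its promoter peaks in siControl alone, by a narrow margin. A weak siControl peak in exon 1 (chr9:116918060-116918301) had a rank of 3.79, a −log10 q of 3.21 and no counterpart. A second peak in intron 1 (chr9:116918809-116919417) had a rank of 12.6 in siControl and 19.6 in siAATF. That peak was shared, but its near edge lay 992 bp from the nearest coding start in siControl and 1023 bp in siAATF, on either side of the 1 kb limit. COL2A1, the main chain of cartilage collagen, had no promoter peak and held the strongest gene body peak of the family. It lay in intron 1, with its midpoint 2753 bp from the canonical start (chr12:48395103-48395910), and its fold enrichment was 8.72 in siControl and 8.49 in siAATF. Its −log10 q was 43.0 and 38.3 and its rank 88.7 and 91.4, so it was among the strongest 12% of peaks in both lists. COL1A2, COL3A1, COL5A2, COL5A3, COL11A2 and COL24A1 had no peak in either list, although COL1A2 and COL3A1 encode the chains that accompany COL1A1 in many fibrils.

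Among the network-forming chains of basement membranes, 4 of 6 genes had a promoter peak in both lists, all at shared starts. The type IV genes lie in head-to-head pairs. COL4A1 and COL4A2, which encode the chains present in nearly every basement membrane, shared a peak over both starts (chr13:110958984-110960243). Its fold enrichment was 6.53 in siControl and 5.62 in siAATF, its −log10 q 19.3 and 13.2, and its rank 60.4 and 50.5. COL4A3 and COL4A4, chains of the kidney glomerular basement membrane, shared a peak (chr2:228028609-228029737) that moved the other way. Its fold enrichment was 6.77 in siControl and 7.802 in siAATF, its −log10 q 22.5 and 29.95, and its rank 63.7 and 83.3, a gain of 19.6 points that was the largest at a collagen promoter. COL4A5 and COL4A6, the X-linked pair, had no peak at all. Their starts were also poor in CpG, with an observed/expected of 0.476 and 0.406, against 0.860 and 0.865 for COL4A1 and COL4A2 and 0.727 and 0.699 for COL4A3 and COL4A4. Whether CpG content had a part in the missing peaks was not tested.

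Among the short-chain network chains, COL8A1, found in the matrix beneath endothelium, had the largest loss of rank among collagen promoter peaks that overlapped between the lists. Its siControl peak (chr3:99357320-99357545) covered the canonical start with a fold enrichment of 4.53, a −log10 q of 3.27 and a rank of 28.4. Its siAATF peak (chr3:99356735-99357330) ended upstream of the canonical start but covered another coding start, with 3.32, 1.34 and 4.55. The 2 peaks overlapped by only 11 bp. COL8A2 had a weak gene body peak in siAATF alone, and COL10A1, a chain of growth plate cartilage, had none. Of the 5 beaded filament chains, COL6A2 had a promoter peak over its start (chr21:47517744-47518738) with ranks of 33.9 and 30.5. COL6A1, its partner in type VI collagen, had no promoter peak but a strong peak over coding exon 3 (chr21:47403866-47404613), with a −log10 q of 26.3 in siControl and 21.7 in siAATF and ranks of 58.8 and 51.1. COL6A3, COL6A5 and COL6A6 had no peak.

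COL7A1 encodes the anchoring fibril chain that fastens the epidermis to the dermis. Its promoter peak was found in siAATF alone (chr3:48633079-48633526), upstream of the start. It was among the weakest of that list, with a fold enrichment of 3.12, a −log10 q of 1.32 and a rank of 2.46. A stronger peak over its last exon, number 119, was shared, with ranks of 44.9 and 33.9, and lay at the promoter of UCN2, the neighbouring gene for a peptide hormone.

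The FACIT and related chains had promoter peaks at 6 of 10 genes in each list. COL9A2, a chain of cartilage type IX collagen, had the highest rank of any collagen promoter in both lists. Its peak in intron 1 (chr1:40782136-40782803) had a fold enrichment of 9.30 in siControl and 8.94 in siAATF, a −log10 q of 39.8 and 31.8, and a rank of 93.8 and 95.1. COL19A1 was next, with an intron 1 peak (chr6:70576988-70577686) of rank 91.8 and 86.0, a fold enrichment of 9.05 and 8.01 and a −log10 q of 25.1 and 18.1. That peak also lay at a promoter of LMBRD1, a gene for a lysosomal cobalamin transport protein, so it cannot be given to COL19A1 alone. COL14A1, a FACIT chain of tendon and skin, had a strong peak about 1.3 kb upstream of its canonical start, with a fold enrichment of 7.59 and 7.32, a −log10 q of 30.9 and 28.3 and a rank of 74.5 and 76.4. It counted as a promoter peak in siControl alone, since its edge crossed the 1 kb limit, and a weak shared peak over the start had ranks of 2.98 and 1.91.

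The other FACIT promoters were weaker. COL12A1 had a promoter peak in both lists, but the peaks were different ones. The siControl peak covered the canonical start (chr6:75915548-75916014) with a fold enrichment of 4.78, a −log10 q of 5.56 and a rank of 33.1, and it had no siAATF counterpart. The siAATF peak lay in intron 2, with its midpoint 3975 bp downstream and near the start of another coding transcript (chr6:75911616-75911973), with 3.54, 2.16 and 8.38, and it had no siControl counterpart. COL21A1 had a peak at its start (chr6:56111781-56112468) whose fold enrichment was 4.62 and 3.75 and whose rank was 30.3 in siControl and 13.2 in siAATF, the second largest loss among overlapping pairs. COL9A3, the partner of COL9A2, had a promoter peak near an internal coding start, in intron 3 (chr20:61450025-61450926), with the lowest siControl rank of the strongest promoter peak of any collagen gene, 2.05, and 2.80 in siAATF. Its fold enrichment was 3.07 and 3.16. COL16A1 and COL20A1 had gene body peaks alone, and COL9A1 and COL22A1 had no peak.

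Of the transmembrane chains, COL13A1 and COL25A1 had promoter peaks in both lists, and COL17A1, of epidermal hemidesmosomes, and COL23A1 had no peak. COL13A1 had a wide peak from exon 1 into intron 1 (chr10:71561767-71562986) with ranks of 60.0 and 60.2, almost the same in the 2 lists. COL25A1, found in neurons, had a peak over its start (chr4:110223756-110224245) with a fold enrichment of 7.21 and 6.63, a −log10 q of 10.6 and 10.4, and ranks of 69.3 and 66.7. COL26A1, which fits none of these groups, had a peak in intron 1 (chr7:101007114-101007461) with a fold enrichment of 3.87 in siControl and 4.48 in siAATF. Its rank was 14.6 and 29.6, the second largest gain. COL28A1 had no peak, nor had the multiplexin COL15A1, while COL18A1, whose chain carries the endostatin fragment, had gene body peaks alone.

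Between the lists, the ranks of collagen promoter peaks moved up and down about equally. Over the 17 collagen promoter peaks that paired with exactly 1 peak of the other list, 9 ranks were higher and 8 lower in siAATF, and the median change was 0.15 points (interval of the median −5.79 to 6.97). Over all 11081 such promoter pairs the median change was 0.0882 points. A change of over 20 points was seen in 1 of 17 collagen pairs, COL8A1 (5.88%, interval 0.149 to 28.7), against 6.71% of all promoter pairs. Promoter peaks without any counterpart numbered 2 of 19 in siControl (10.5%, interval 1.30 to 33.1), against 3.86% of all promoter peaks, and were those of COL12A1 and COL27A1. In siAATF they numbered 2 of 17 (11.8%, interval 1.46 to 36.4), against 3.46%, at COL12A1 and COL7A1. Each of these intervals held the value for all promoter peaks, so no difference was detectable with so few peaks. The COL4A1/COL4A2 and COL4A3/COL4A4 peaks changed in opposite directions, by −9.88 and 19.6 points, and without replicates the spread of such changes is unknown.

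Gene body peaks were more frequent in collagen genes than in coding genes as a whole. They were present in 16 of 44 collagen genes in siControl (36.4%, interval 22.4 to 52.2), against 13.1% of all coding genes, and in 13 of 44 in siAATF (29.5%, interval 16.8 to 45.2), against 14.1%. Collagen genes are long, with a median of 145 kb against 27.0 kb for all coding genes, and longer genes had more such peaks. Among genes of 100 to 200 kb, the counts were 5 of 14 collagen genes in siControl and 3 of 14 in siAATF, beside 24.9% and 26.2% of all coding genes of that length. Among genes of 200 kb or more they were 5 of 12 and 4 of 12, beside 30.4% and 33.3%. Among genes of 50 to 100 kb it was 1 of 5 in each list, beside 17.4% and 19.1%. For genes of 25 to 50 kb the count was 3 of 9 in each list, beside 13.8% and 15.04%, and for those under 25 kb it was 2 of 4, beside 6.22% and 6.51%. With 4 to 14 collagen genes in a class, none of these classes fixes a difference on its own, and the part of gene length in the higher count was not tested.

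Gene body peaks made up most of the collagen peaks without a counterpart, 13 of 15 in siControl and 4 of 6 in siAATF. They were also the larger part over all coding genes. There, 780 gene body and 451 promoter peaks had no counterpart in siControl, and 1061 and 403 in siAATF. Of the gene body peaks lying outside the promoters of every coding gene, 13 of 24 in siControl had no siAATF counterpart (54.2%, interval 32.8 to 74.4), against 28.9% of all such peaks of that list. In the other direction, 4 of 17 in siAATF had no siControl counterpart (23.5%, interval 6.81 to 49.9), against 35.5%. The siControl interval lay above the value for all gene body peaks, and the siAATF interval held it. Most of the unshared peaks were weak, and over all collagen peaks, promoters included, only 2 of the 15 unshared siControl peaks and 1 of the 6 unshared siAATF peaks reached a −log10 q of 5. Those 3 were COL12A1 and COL13A1 in siControl and COL18A1 in siAATF. The same share over all unshared peaks was not computed, so weak unshared peaks cannot be called particular to collagen genes.

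**Figure D4:**
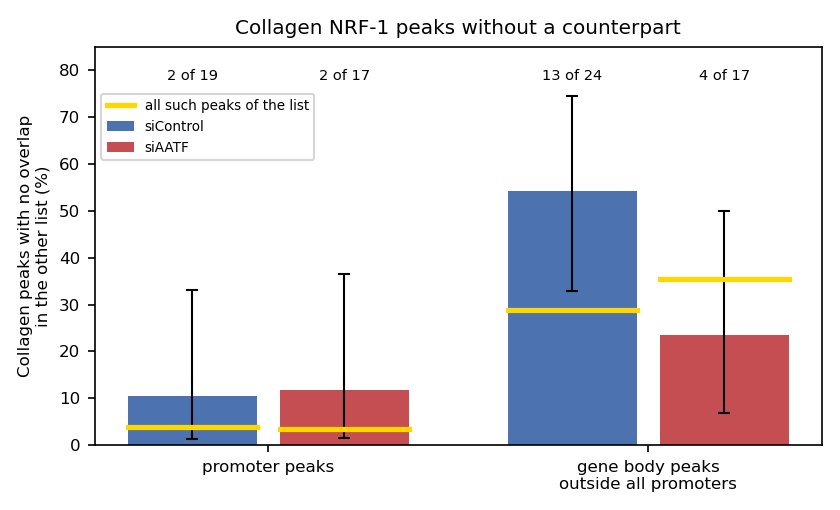
Percent of collagen peaks without an overlapping peak in the other list, for promoter peaks and for gene body peaks outside all promoters, with exact 95% intervals as error bars, gold lines for all such peaks of the list, and counts above the bars. The siControl gene body bar is at 54.2% with its interval above the gold line at 28.9%, and the other 3 intervals include theirs.

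The strongest unshared gene body peak lay in intron 2 of COL13A1 (chr10:71605619-71606024), in siControl alone, with a fold enrichment of 6.76, a −log10 q of 9.26 and a rank of 63.6. A second siControl-only peak of COL13A1 (chr10:71626434-71626807) had a rank of 19.2. Next in siControl were peaks of COL25A1 in intron 6 (chr4:109900993-109901301, rank 39.4) and in intron 5 (chr4:109933564-109933763, rank 19.3). COL4A3 had such a peak in intron 1 (chr2:228092885-228093183, rank 36.9) and COL19A1 in intron 11 (chr6:70720238-70720437, rank 34.6). The remaining 7 siControl-only peaks were near the bottom of the list, with 2 in COL5A1 (ranks 5.16 and 8.04), 2 in COL20A1 (4.60 and 2.00) and 1 each in COL26A1 (3.21), COL27A1 (7.77) and COL4A2 (11.5). The COL20A1 peak of rank 2.00, with a −log10 q of 1.6, was the one that held the exact core. Thus the only collagen peak with the core was among the weakest of its list and was missing from the other list.

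In siAATF alone, the strongest gene body peak lay in intron 2 of COL18A1 (chr21:46859375-46859644), with a fold enrichment of 5.51, a −log10 q of 7.59 and a rank of 48.7. The others were in COL8A2 (chr1:36580755-36581054, rank 33.2), COL16A1 (chr1:32166881-32167230, rank 2.87) and COL5A1 (chr9:137599014-137599381, rank 2.60). The COL5A1 peak began just past the end of a siControl-only peak in the same intron (chr9:137598701-137598969), so these were neighbouring calls without overlap. Over the 11 gene body peaks with exactly 1 counterpart, 8 ranks were higher and 3 lower in siAATF, with a median change of 8.04 points (interval of the median −7.71 to 25.7), against 1.15 points for all such gene body pairs. The largest gains were in intron 2 of COL18A1 (43.5 to 72.1), intron 4 of COL4A2 (12.7 to 38.4) and intron 5 of COL26A1 (47.8 to 70.9). The interval reached below 0, and no replicate gives the spread of such changes.

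No collagen promoter peak held the NRF-1 core, even with 1 mismatch. With up to 1 mismatch allowed, 0 of 19 siControl promoter peaks held it, which allows a share of up to 15.8% by a count of 3 (exact upper bound 17.6%), against 21.5% of all promoter peaks of the list. In siAATF it was 0 of 17, which allows up to 17.6% by a count of 3 (exact upper bound 19.5%), against 21.5%. The exact core was held by 3.48% and 3.49% of all promoter peaks. The core was concentrated in the most significant promoter peaks of each list, where few collagen peaks lay. In siControl, 57.1% of all promoter peaks with a −log10 q rank of 75 or above held it, and 2 collagen peaks fell there, those of COL9A2 and COL14A1. Between ranks of 50 and 75 the share was 6.03%, with 6 collagen peaks, between 25 and 50 it was 1.67%, with 6, and below 25 it was 1.47%, with 5. In siAATF the shares in the same order were 55.9%, 6.09%, 1.47% and 1.17%, with 2, 6, 2 and 7 collagen peaks. With 2 collagen peaks at ranks of 75 or above in each list, these counts cannot show a difference from promoter peaks of like significance.

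The other words searched were found in collagen peaks at shares whose exact 95% intervals held those of all peaks of the same kind. The control palindrome, the word CGCGA followed by its reverse complement, was found with up to 1 mismatch in 1 of 19 siControl and 1 of 17 siAATF collagen promoter peaks, both at COL4A1/COL4A2, against 5.71% and 5.78% of all promoter peaks. The GC box GGGCGG, on either strand, was in 18 of 19 and 15 of 17, against 91.2% and 91.1%. The word CCAAT, on either strand, was in 9 of 19 and 8 of 17, against 48.9% and 50.4%. The AP-1 words TGACTCA and TGAGTCA were in 0 of 19 and 2 of 17 promoter peaks, against 6.29% and 6.81%, and in 5 of 24 and 3 of 17 gene body peaks, against 23.9% and 29.6%. In gene body peaks the core with up to 1 mismatch was in 1 of 24 (COL20A1) and 0 of 17, against 6.82% and 5.92%. A match is a run of letters and does not show that a factor bound there.

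The genes that modify, fold, cross-link, bind and degrade collagen were set beside the chains, using a list of 48 genes chosen with earlier results of these data known. Promoter peaks were found at 36 of them in siControl (75%, interval 60.4 to 86.4) and at 37 in siAATF (77.1%, interval 62.7 to 88.0), against 61.1% and 60.7% of all coding genes. The enzymes that hydroxylate and glycosylate the chains, with their partners, had a promoter peak at 14 of 15 genes in both lists. All 6 genes for folding and export had one. For propeptide removal it was 6 of 8 and 7 of 8, for cross-linking 4 of 5 in both, for collagen receptors 4 of 7 in both and for collagen degradation 2 of 7 in both, at MMP2 and MMP14. The median CpG observed/expected was 0.803 for the hydroxylation and glycosylation genes and 0.213 for the degradation genes, but the roles between did not follow the order of CpG content, with 0.672 for folding and export, 0.681 for cross-linking, 0.690 for receptors and 0.792 for propeptide removal. The part of CpG content in these counts was not tested.

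**Figure D5:**
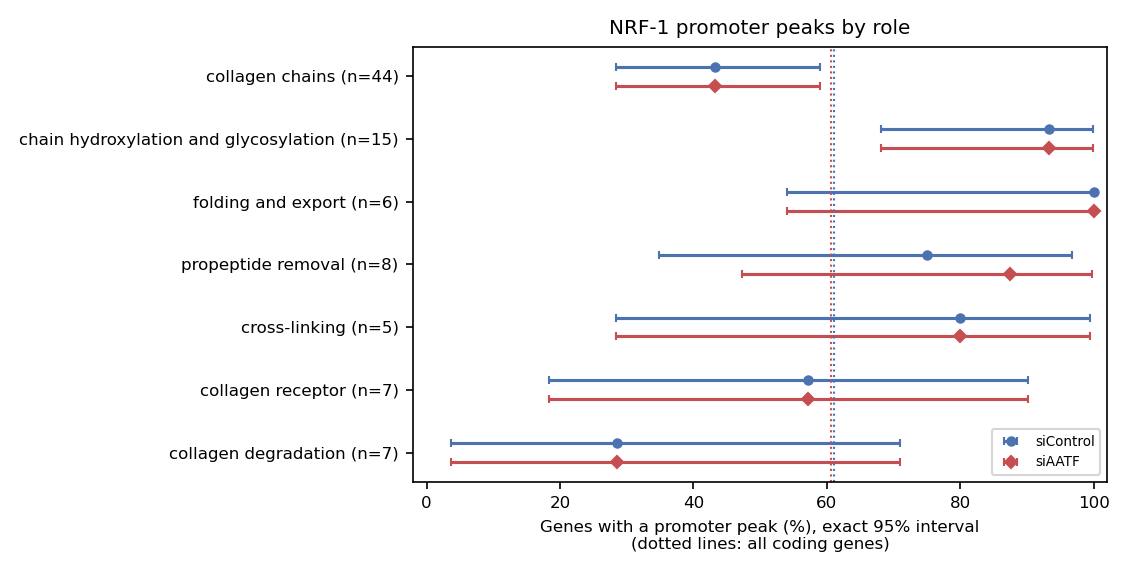
Percent of genes with a promoter peak, by role, in siControl (circles) and siAATF (diamonds) with exact 95% intervals; dotted lines mark all coding genes (61.1% and 60.7%). The 44 collagen chains lie at 43.2% in both lists, below the dotted lines, and the genes for hydroxylation and glycosylation lie at 93.3%, above them.

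The core with up to 1 mismatch was in a promoter peak of 4 pathway genes in both lists, out of 36 and 37 with a promoter peak. It was in 21.5% of all promoter peaks in each list, a share of distinct peaks and not of genes, so it is not a like measure. The 4 were P4HA1 and P4HB, the subunits of prolyl 4-hydroxylase, P3H1, a prolyl 3-hydroxylase, and PLOD3, a lysyl hydroxylase. The highest siControl ranks were those of PLOD1, another lysyl hydroxylase (97.6), PPIB, a proline isomerase (92.9), and ITGA11, a collagen-binding integrin chain (90.7). The highest siAATF ranks were those of KLHL12, which adapts coat vesicles to procollagen (95.6), PLOD1 (94.4) and P4HA1 (88.3). ADAMTS2, a procollagen propeptidase, was the only pathway gene with a promoter peak in 1 list alone. That siAATF peak was weak, with a fold enrichment of 3.23, a −log10 q of 1.19 and a rank of 3.49. At ADAMTS3 and MIA3, which had a promoter peak in both lists, the peak that stood for the gene differed between the lists, without overlap. P3H4 and FKBP10 shared a single peak between them, with ranks of 50.2 and 44.4.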

How the data were processed

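Each of 2 samples, siControl and siAATF, had 1 MACS2 broadPeak list. Per the study's methods, the experiment was done in duplicate, but whether reads were pooled was not stated, and both labels carry replicate number 1. The submitters' processing notes name Bowtie2, MACS2 and hg19, and the methods name an ATAC-seq pipeline run with default settings. Neither input nor IgG was named as a control for the peak calling. The series text names U138 cells and the sample labels U251, which were followed. Fold enrichment over local background, a ratio, was deposited by the authors, as were the −log10 p and −log10 q, and depth was unknown. The authors also deposited a display score, not used here.

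Peaks, promoters (1 kb on either side of any protein_coding start) and genes of GENCODE release v44 lifted to hg19 were intersected with Python 3.11.15, numpy 2.4.6, scipy 1.17.1, pandas 2.3.3 and pysam 0.24.0, and the overlap, rank and motif functions were tested on simulated data. Sequences came from the GRCh37 primary assembly. Gene body peaks were counted by peak only outside the promoters of every coding gene. Intervals of medians are exact order-statistic 95% intervals. The members, gene groups, pathway list and tests were chosen with earlier results of these data known. Values were given for promoter peaks in 1 list alone, promoter peaks with the core, and the 5 highest and 5 lowest siControl ranks. They were also given for the 3 largest rank changes each way, the type IV pairs and gene body peaks in 1 list alone. Of the pathway list, they were given for the 3 highest ranks per list and promoter peaks in 1 list alone. Fold enrichment, −log10 q or position was left out for some of these. No test was made, since each condition had 1 list.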

Additional observations from a re-analysis of the deposited data

How the results depend on the processing

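Of 38 alternative values over 11 results, 27 stayed within 1.5 times the main count or inside the 95% interval of the main share or median, and 11 did not. Inside wide intervals, the siControl median rank of 60.0 became 41.6 after the filter described next. Ranks were then taken anew among the remaining peaks, so these values are on different scales. The median rank change of 0.15 points became −1.57 when peaks were ranked by −log10 q. When both lists were cut to a −log10 q of 5 or more, promoter peaks remained at 12 collagen genes in siAATF (15 in siControl, 51.5% of all coding genes in each list), gene body peaks at 7 in siControl and 8 in siAATF (15.9% and 18.2%, beside 7.25% and 7.60% of all coding genes), and 90% of siControl and 94.7% of siAATF collagen peaks were shared, against 65.9% and 82.9% without the filter; the shares were the same when only the query list was filtered. Thus most collagen peaks found in 1 list alone were weak calls. The shared percentages of all peaks under these settings were not computed, so this cannot be called particular to collagen genes. Alternatives chosen after seeing the data were a promoter peak that covers the canonical start, which left 12 genes in siControl and 9 in siAATF, a shared peak counted once, which left 17 in each, and up to 2 mismatches in the core, which gave 52.6% and 47.1% of collagen promoter peaks, beside 65.4% and 65.2% of all promoter peaks. Promoter windows of 500 bp and 2 kb gave 17 and 19 genes in siControl, beside 60.1% and 62.1% of all coding genes, and 16 and 20 in siAATF, beside 59.8% and 61.8%. No paired analysis was possible because each condition had 1 list and no test was made. Depth was unknown, so a weak peak missing from a list cannot be told apart from lower depth.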

Other observations

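Genes with a collagen symbol and no coding product were looked at on their own. Of the 8 long non-coding records, only COL25A1-DT, COL6A2-DT and COL6A4P1 had a promoter peak. No pseudogene record had a promoter peak, and the pseudogene record of COL6A4P1 had a gene body peak in siControl alone. COL25A1-DT, a divergent transcript of COL25A1, had its start inside the promoter peak of that gene in both lists, and COL6A2-DT had its start within 1 kb of the COL6A2 promoter peak but outside it. The ranks of these 2 peaks were 69.3 and 33.9 in siControl and 66.7 and 30.5 in siAATF. The long non-coding record of COL6A4P1, a broken copy of a type VI collagen gene, had a strong peak at its start. It was present in both lists, with a −log10 q of 98.0 in siControl and 92.5 in siAATF and ranks of 84.7 and 83.2 (chr3:15247318-15248347). That peak also lay at a promoter of the coding gene CAPN7, a calpain protease, so the collagen name of the record does not mark a collagen promoter, and the best match to the core in it had 2 mismatches.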
